A study of Mus musculus with 4 samples.

Results

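Chromatin regions that were more accessible after post-transplant cyclophosphamide (PT-Cy) in both T cell lineages numbered 1488. They were chosen from the deposited set of 148283 open-chromatin peaks by 2 requirements. A peak needed at least 100 counts over all cells and at least 20 in each lineage, which left 44523 eligible peaks. It also needed CPM (counts scaled to a common total in peaks) at least 1.5-fold higher in the PT-Cy than in the untreated library, in the CD4 set and in the CD8 set separately. Of the eligible peaks, 5353 (12.0%) reached that fold in the CD4 set and 3502 (7.87%) in the CD8 set. The 1488 that reached it in both, called member peaks here, were 3.34% of the eligible ones, and 2459 peaks (5.52%) met the mirror-image rule for lower accessibility. With edgeR TMM factors in place of total counts, which shifted the CD4 log2 ratios by -0.20 and the CD8 ones by -0.09, the counts were 905 higher and 3533 lower. Because the ratio of PT-Cy to untreated CPM chose the members, these ratios are a description and carry no test.

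The cells were T cells sorted from mouse bone marrow on day 14 after transplantation. C3H.SW mice donated 5000000 marrow cells, 500000 CD4 T cells and 500000 CD8 T cells to each C57Bl/6 recipient (alloBMT). The donor strain shares the recipients' major histocompatibility type and differs at minor antigens. Both groups carried this transplant, and the PT-Cy group also received 50 mg/kg cyclophosphamide on days 3 and 4. Chromatin accessibility (ATAC) and RNA were read from the same cells on a droplet multiome platform. Each group was a pool of 4 mice and gave 1 library per assay, so no value has a biological replicate and no test was run. The labels do not say whether the sorted cells were of donor or host origin. All intervals are exact 95% intervals from counts (conditional binomial for ratios) and cover counting error only.

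An ATAC peak marks DNA that the transposase can reach, usually a promoter or an enhancer bound by transcription factors. Cyclophosphamide given a few days after an allogeneic transplant kills or impairs dividing, alloreactive T cells and is used to prevent graft-versus-host disease. T cells that keep a memory or stem-like state express TCF1 (the product of Tcf7), the FOXO1 programme with S1pr1, Ccr7 and Klf2, and the receptor for interleukin 7. Chronically stimulated cells instead express Tox, inhibitory receptors and effector genes.

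Of the 1488 member peaks, 139 (9.34%) overlapped a gene start listed in the RefSeq promoter table for mouse assembly GRCm38.p6. The 250 bases upstream of 4 such starts are printed to show the DNA that lay under member peaks near promoters. Predicted genes and chromosomes 18, X and Y were left out. Of the other starts in that table, those of Aff3, Chst15 and Plxnb2 had the highest lower bounds of the ratio. Ahcyl2 was added because its window holds FOXO-type letters. Member peaks over an end of Bmp7, S1pr1 and Socs2 had higher lower bounds and are not printed. Aff3 encodes a nuclear protein of the AF4/FMR2 family, Chst15 a carbohydrate sulfotransferase, Plxnb2 a semaphorin receptor and Ahcyl2 a protein related to adenosylhomocysteinase. The windows lie at chr1:38627245-38627494 (minus strand), chr7:132317229-132317478 (minus), chr15:89180789-89181038 (minus) and chr6:29853491-29853740 (plus), in that order. Sequences read 5′ to 3′ on the gene's strand, and capitals mark GGGCGG or its reverse complement (KLF/SP type) and, in Ahcyl2, the reverse complement of GTAAACA (FOXO type); other letters searched stay in lower case.
Aff3: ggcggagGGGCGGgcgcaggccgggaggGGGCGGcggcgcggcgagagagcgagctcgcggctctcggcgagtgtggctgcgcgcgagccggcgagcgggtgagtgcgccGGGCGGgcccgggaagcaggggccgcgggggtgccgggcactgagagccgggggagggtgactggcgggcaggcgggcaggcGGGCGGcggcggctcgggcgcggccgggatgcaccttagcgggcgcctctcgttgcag
Chst15: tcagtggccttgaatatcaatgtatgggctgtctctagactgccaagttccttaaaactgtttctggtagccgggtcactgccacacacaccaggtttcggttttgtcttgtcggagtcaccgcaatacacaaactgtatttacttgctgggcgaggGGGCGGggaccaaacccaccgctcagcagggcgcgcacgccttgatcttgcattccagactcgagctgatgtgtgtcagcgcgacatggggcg
Plxnb2: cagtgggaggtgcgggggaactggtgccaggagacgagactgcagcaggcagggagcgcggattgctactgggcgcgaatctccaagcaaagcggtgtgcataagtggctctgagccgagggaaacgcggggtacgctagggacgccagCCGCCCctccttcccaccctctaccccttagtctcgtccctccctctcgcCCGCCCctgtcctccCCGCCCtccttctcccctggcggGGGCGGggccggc
Ahcyl2: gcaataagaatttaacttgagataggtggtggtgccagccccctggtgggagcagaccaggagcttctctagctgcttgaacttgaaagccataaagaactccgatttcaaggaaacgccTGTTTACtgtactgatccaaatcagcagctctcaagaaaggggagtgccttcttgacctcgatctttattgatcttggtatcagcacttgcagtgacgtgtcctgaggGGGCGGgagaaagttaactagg

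The Aff3 window had 82.0% GC and 4 matches to GGGCGG, and Plxnb2 had 69.2% GC and 4 matches. The Chst15 and Ahcyl2 windows had 54.8% and 48.4% GC with 1 match each. The peak over the Aff3 start (chr1:38626441-38628024) had 5.02 CPM in alloBMT against 16.9 in PT-Cy CD4 cells, and 5.18 and 12.8 in CD8 cells. Over the Ahcyl2 start the values were 14.1 and 30.5 CPM in CD4 cells and 9.33 and 21.5 in CD8 cells. In each of these 2 peaks both PT-Cy values were above both alloBMT values.

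Short letter strings were counted on both strands in the upstream windows of 148 gene starts under member peaks and of 11486 under eligible peaks. GGGCGG stood in 64.2% of member and 63.5% of eligible windows, against 42.6% of all 21229 windows. The ETS-type letters CCGGAA stood in 12 of 148 member windows (8.11%, interval 4.26% to 13.7%), against 23.9% of eligible windows. CACCC, part of KLF2-type sites and able to overlap other GC-box strings, stood in 70.9% of member windows (62.9% to 78.1%) and 58.4% of eligible ones. GTAAACA stood in 4 member windows (2.70%) and 1.86% of eligible ones. The TCF/LEF-type CTTTGA (8.11% and 9.68%), RUNX-type TGTGGT (9.46% and 10.0%), AP-1-type TGANTCA (5.41% and 3.67%), NF-Y-type CCAAT (29.7% and 35.7%), E2F-type TTCCCGC (5.41% and 7.60%) and IRF-type letters (1.35% and 2.56%) had member intervals that held the eligible share. TGACGTCA, the CREB type, was in none of the 148 member windows (upper bound 2.46%) and in 2.89% of eligible ones. Median GC was 63.6% in member, 61.6% in eligible and 55.6% in all windows. Within 2 kb of gene ends the median level was 7.78 CPM for members and 28.0 CPM for eligible peaks. The part of level in these shares was not tested. The intervals take windows as independent, although windows of the same gene can overlap, as at Chst15.

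Member peaks were small. Their median was 38 counts in the alloBMT and 18 in the PT-Cy CD4 cells, and 76 and 28 counts in the CD8 cells. On the CPM scale the medians were 5.45 and 11.7 in CD4 cells and 4.58 and 8.98 in CD8 cells, so the typical member was 1.97-fold higher in the CD4 set and 1.82-fold higher in the CD8 set. The highest folds were 8.72 and 6.76. The larger of the 2 ratios was the CD4 one in 898 members (60.3%), a share not computed over the eligible peaks. CD4 ratios spread more in both directions over all eligible peaks. There 12.0% were at least 1.5-fold higher and 18.6% lower in CD4, against 7.87% and 11.9% in CD8. The part of this spread in the larger CD4 ratios was not tested. Among the members the CD4 and CD8 log2 ratios had a Pearson correlation of 0.288 and a Spearman correlation of 0.232 (n = 1488 peaks, which share mice, library preparation and peak width). The rule cut both ratios at 1.5-fold, so the size of these correlations depends on that cut. They were not computed over the eligible peaks.

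Counting error was wide at single peaks. The exact interval of the ratio lay above no change in 903 members in CD4, in 1178 in CD8 and in 768 (51.6%) in both sets; 1032 eligible peaks (2.32%) had both intervals above no change. It lay above 1.5-fold in both sets in 90 members. At least 2-fold in both sets held for 304 peaks (0.683% of eligible peaks) and at least 3-fold for 27. The members closest to the threshold lay near Tcf20 (smaller fold 1.50029), Cidea (1.50029) and Rasa3 (1.50117), and the eligible peaks just under it lay near Nfe2l2 (1.49957), Rcsd1 (1.49926) and Niban2 (1.49926).

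**Figure D1:**
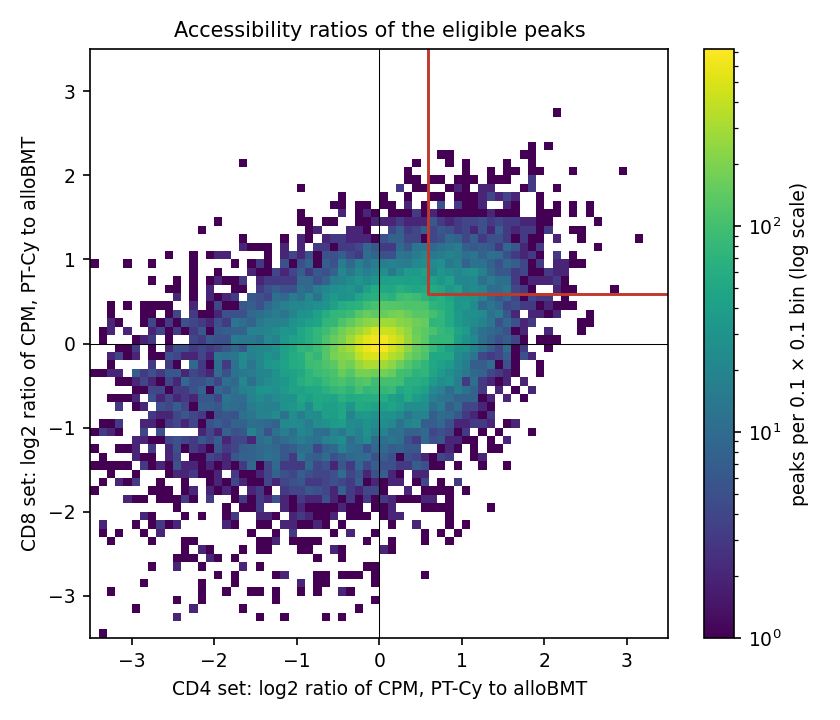
Log2 ratio of CPM, PT-Cy to alloBMT, in the CD4 set (x axis) and the CD8 set (y axis) for the eligible peaks, coloured by the number of peaks in each 0.1 by 0.1 bin on a log scale; peaks beyond the axes are not drawn. The red lines mark 1.5-fold, and the 1488 member peaks lie above and to the right of them, at the edge of one cloud centred near 0.

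Members came mostly from peaks of low to middle level. With eligible peaks in 5 equal bins of mean CPM, the percentage of members was 1.82 in the lowest bin, 6.96 and 5.81 in the next, 2.04 in the fourth and 0.0786 (7 of 8905 peaks) in the highest. Peaks lower in both sets were also rare in the highest bin, at 0.236%. Median width was 927 bases for members and 976 for eligible peaks.

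Member peaks lay away from the ends of protein-coding genes. Of the 1488, 300 (20.2%, interval 18.1% to 22.3%) were within 2 kb of a gene end, against 34.5% of eligible peaks. Another 623 (41.9%) lay inside a gene farther than 2 kb from its ends, against 38.1%, and 565 (38.0%) lay between genes, against 27.4%. Exons and introns were not separated, because the gene table used gives gene ends only. The median distance to a gene end was 14.8 kb for members and 6.48 kb for eligible peaks, and 143 members (9.61%) were over 100 kb away, against 4.83%.

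Level moved with place. Eligible peaks within 2 kb of an end had a median mean level of 28.0 CPM, against 7.77 inside genes and 7.73 between genes, while members had medians of 7.78, 7.51 and 7.56. The part of level in the shortage of members near gene ends was not tested. Of the peaks lower in both sets, 11.8% lay within 2 kb of an end and 58.6% deeper inside a gene. By chromosome, members made up from 1.80% (X) to 4.77% (16) of eligible peaks, leaving out Y with 8 eligible peaks.

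Each peak was tied to the protein-coding genes it overlaps or, failing that, to the nearest one, which gave 1162 genes. Nearness does not show which gene a peak acts on. Of these genes 230 had at least 2 member peaks and 61 at least 3. Foxo1 had the most, 8 of its 30 eligible peaks, followed by Map3k8 (7 of 11), S1pr1 (7 of 17) and Ubac2 (7 of 35). Some members lay close together: with gaps of at most 25 kb, 368 of them fell into runs of 2 or more, and 39 runs held 3 or more. All 5 eligible peaks of a 53.4 kb stretch between Foxo1 and Cog6 were members, as were all 5 of a 33.4 kb stretch at Sh3pxd2a, a scaffold gene of invasive cell protrusions. Each stretch starts and ends at a member by definition, and these are 2 of the 39 runs. The run with the most members, 6 at Celsr1 and Gramd4, held 11 eligible peaks. Runs were not counted for the eligible peaks, so the grouping has no baseline.

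**Figure D2:**
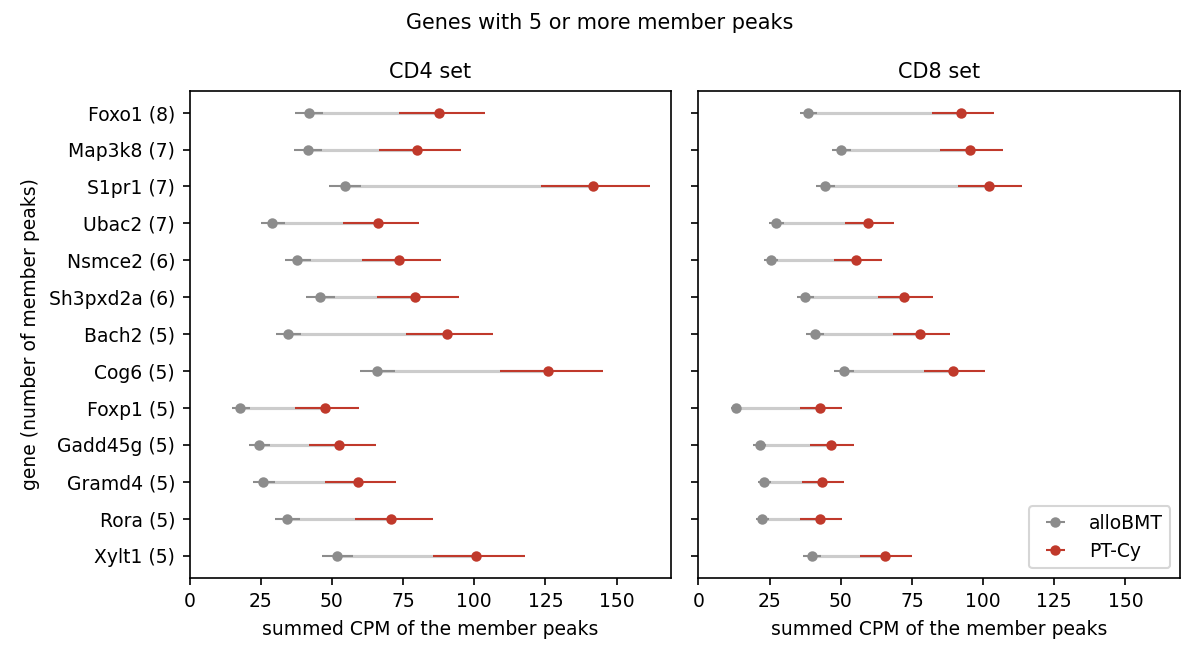
Summed CPM of the member peaks tied to each gene with 5 or more of them, in the CD4 set (left) and CD8 set (right), with grey points for alloBMT, red points for PT-Cy and bars for exact 95% Poisson intervals. By the choice of members every red point lies to the right of its grey point; the lines show the size, such as 54.5 to 142 CPM at S1pr1 in CD4 cells.

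Among trafficking receptors, S1pr1 held 3 of the 15 members with the highest lower bounds. S1pr1 encodes the sphingosine-1-phosphate receptor that lets lymphocytes leave lymphoid organs. Its strongest peak, 85.4 kb from the gene (chr3:115800424-115801886), had 4.59 CPM (32 counts) in alloBMT and 24.0 CPM (37 counts) in PT-Cy CD4 cells, and 3.07 CPM (51) and 13.2 CPM (41) in CD8 cells. That was 5.24-fold and 4.28-fold, and both PT-Cy values were well above both alloBMT values. The S1pr1 peak 13.3 kb away (chr3:115728348-115729922) went from 5.45 to 21.4 CPM in CD4 and from 3.61 to 12.2 CPM in CD8. At the end of the gene itself (chr3:115714616-115715658) the values were 12.3 and 35.7 CPM in CD4 and 9.57 and 26.3 CPM in CD8. Summed over its 7 members, S1pr1 was 2.60-fold higher in CD4 (2.19 to 3.08) and 2.29-fold in CD8 (2.00 to 2.62), while its 10 other eligible peaks had median log2 ratios of 0.06 and 0.35.

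Ccr7 encodes the chemokine receptor for entry into lymph nodes. Its 4 member peaks summed to 24.5 CPM in alloBMT against 74.1 in PT-Cy CD4 cells (3.02-fold, 2.36 to 3.85), and to 31.3 and 60.3 CPM in CD8 cells (1.93-fold, 1.62 to 2.28). The CD4 and CD8 intervals at Ccr7 did not overlap; the difference itself was not tested. The member peak at an end of Ccr7 (chr11:99154476-99155449) had 12.8 and 33.1 CPM in CD4 and 16.3 and 29.2 CPM in CD8. Tcf7, Il7r and Satb1 are also described because of their known roles, chosen after their values were seen. Cxcr4, the receptor that holds cells in marrow, had 1 member among 22 eligible peaks, 199 kb away, at 3.52- and 3.90-fold. Emb, which encodes the adhesion glycoprotein embigin, had 4 members that summed to 48.2 and 105 CPM in CD4 (2.17-fold) and 33.9 and 62.5 CPM in CD8 (1.84-fold).

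Transcription factors of resting and memory T cells formed the next group. Foxo1 encodes the factor that drives Il7r, S1pr1 and Klf2 in resting T cells. Its 8 members summed to 41.9 CPM in alloBMT against 87.7 in PT-Cy CD4 cells (2.10-fold, 1.70 to 2.58), and to 38.5 and 92.4 CPM in CD8 cells (2.40-fold, 2.08 to 2.76). Only 1 of the 8 lay inside Foxo1, and the other 7 lay 93.5 to 297 kb away on the side of Cog6, whose own 5 members were 1.92-fold and 1.75-fold higher in sum. The farthest Foxo1 member (chr3:52647165-52648535) had 68 and 24 counts in CD4 and 122 and 78 counts in CD8, or 1.60- and 3.41-fold.

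Foxp1, which holds naive T cells in quiescence, had 5 members, all inside the gene. One of them (chr6:99387880-99389501) had 4.30 CPM (30 counts) in alloBMT against 18.8 CPM (29) in PT-Cy CD4 cells, and 1.57 CPM (26) and 10.6 CPM (33) in CD8 cells. At 6.76-fold it was the highest CD8 ratio of any member. Bach2 encodes a repressor that restrains effector differentiation, and its 5 members summed to 34.6 and 90.3 CPM in CD4 (2.61-fold) and 40.9 and 77.9 CPM in CD8 (1.91-fold). The Bach2 peak at chr4:32290838-32291974 was 6.34-fold in CD4, with 20 alloBMT and 28 PT-Cy counts, and 2.66-fold in CD8.

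Tcf7, the gene of TCF1, had 1 member among its 13 eligible peaks. It lay 14.6 kb inside the gene (chr11:52268141-52268818) and had 18.4 and 29.2 CPM in CD4 and 14.4 and 23.1 CPM in CD8, 1.59-fold (1.11 to 2.25) and 1.60-fold (1.22 to 2.10). The 12 other Tcf7 peaks had median log2 ratios of 0.17 and 0.14, and 1 of them was at least 1.5-fold lower in both sets. Satb1, a chromatin organiser of developing and naive T cells, had 2 members, both between genes, summing to 1.84-fold and 1.68-fold. A peak 22.9 kb from Klf2 (chr8:72295517-72296129), the factor that drives S1pr1, was 3.56- and 2.76-fold higher. Rora, a nuclear receptor gene, had 5 members and 1 peak lower in both sets among 23 eligible peaks. Its strongest member (chr9:69164770-69165986) was 3.54- and 4.63-fold higher on 20 to 32 counts per library and set. In cells of the deposited clusters that held at least 20 cells of each library, a choice added after seeing the data, the smaller log2 ratio of this Rora peak was -0.28.

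Cytokine receptors and their feedback inhibitors were also represented. Il2ra encodes the alpha chain of the interleukin 2 receptor. Of its 8 eligible peaks, 2 were members and 1 was lower in both sets. Its 2 members, both inside the gene, summed to 9.03 and 37.0 CPM in CD4 (4.10-fold, 2.81 to 5.96) and to 7.41 and 18.6 CPM in CD8 (2.51-fold, 1.81 to 3.46). Within CD4 cluster 2 of the authors' clusters, which held 238 of the 284 PT-Cy cells, the Il2ra members had 25.8 CPM (13.3 to 45.1) in alloBMT and 37.3 (27.7 to 49.2) in PT-Cy, with overlapping intervals. Regulatory T cells express Il2ra. In the CD4 set the summed RNA of the Treg markers Foxp3, Il2ra and Ikzf2 was 675 CPM in alloBMT and 1736 in PT-Cy. Most of that sum was Ikzf2, at 638 and 1564 CPM, and Il2ra itself gave 23.1 and 137 CPM. The part of regulatory T cells in the Il2ra ratio was not tested. Il7r, the receptor gene for interleukin 7, had 2 members within 2 kb of its ends that summed to 11.9 and 26.0 CPM in CD4 (2.18-fold, 1.46 to 3.22) and 7.29 and 13.8 CPM in CD8 (1.89-fold, 1.30 to 2.70). Within clusters the Il7r intervals of the libraries overlapped, with alloBMT and PT-Cy levels of 10.8 and 25.4 CPM in CD4 cluster 2, 40.2 and 33.4 in CD4 cluster 4, 6.45 and 6.30 in CD8 cluster 2, 26.4 and 12.2 in CD8 cluster 5 and 25.1 and 32.5 in CD8 cluster 6. A wide peak over an end of Socs2, an inhibitor of cytokine signalling (chr10:95414237-95417758), had counts of 181 and 116 in CD4 and 413 and 171 in CD8, or 2.90- and 2.21-fold.

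Signalling genes contributed Map3k8, the kinase TPL2 upstream of ERK. Its 7 members summed to 41.4 and 79.9 CPM in CD4 (1.93-fold, 1.55 to 2.39) and to 50.2 and 95.6 CPM in CD8 (1.91-fold, 1.66 to 2.18). Its 4 other eligible peaks had median log2 ratios of 0.63 and 0.25. Tnfrsf10b, the mouse receptor for the death ligand TRAIL, had a member inside the gene (chr14:69773865-69775318) with counts of 48 and 40 in CD4 and 60 and 48 in CD8, 3.78- and 4.26-fold. Icos, a costimulatory receptor gene, had 3 members between 30.2 and 135 kb away that summed to 1.91- and 2.04-fold.

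Other peaks with high lower bounds lay at genes of varied roles. A peak inside Pdlim1, a gene for an actin-associated PDZ and LIM protein, was 7.70-fold in CD4 on 10 and 17 counts and 4.26-fold in CD8 on 45 and 36. A peak near Slc6a19, an amino acid transporter gene, was 3.83- and 3.23-fold, and one over an end of Bmp7, a secreted growth factor gene, was 3.08- and 3.42-fold. Peaks near Tnfrsf19 (4.14 and 4.93), Cnpy1 (3.63 and 4.14) and Uspl1 (3.29 and 4.82), inside Prkce (3.57 and 3.80) and Ubac2 (3.54 and 5.18) and near Irgc1 (4.53 and 3.08) had these CD4 and CD8 folds. Tnfrsf19 and Cnpy1 had no RNA UMI in the CD4 set in either library, so these peaks' nearest genes were not detected there.

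The members were also counted by gene list, and these lists were chosen with earlier results of these data known. The 17 lists together held 286 genes and 2182 eligible peaks, of which 114 (5.22%) were members against 3.34% of all eligible peaks. The list for the stem-like, naive and memory states had 41 members among 251 peaks (16.3%) from 15 of 22 genes, and 4 peaks lower in both sets; the list's median log2 ratios were 0.23 in CD4 and 0.25 in CD8, against -0.05 and -0.02 over all eligible peaks. Foxo1, S1pr1, Bach2, Foxp1 and Ccr7 supplied most of these members, and most of the Foxo1 ones were tied to it by nearness only. Trafficking and adhesion genes had 17 of 168 (10.1%), T cell transcription factors 29 of 484 (5.99%), cytokine receptors and signalling 11 of 172 (6.40%), costimulation 6 of 101 (5.94%) and NK and innate-like T cells 5 of 51 (9.80%), 3 of them at Cd163l1. The first and the trafficking list share genes, S1pr1 and Ccr7 among them.

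In the other lists the share of members ran from 0 to 5.56%. T cell exhaustion genes had 6 members of 276 peaks (2.17%), at Ctla4, Eomes, Ikzf2, Maf and Nfatc1, and 25 peaks (9.06%) lower in both sets. Effector and cytotoxic genes had 4 members of 237 (1.69%) and 16 lower (6.75%). The T cell receptor complex and its signalling had 9 of 270 (3.33%), regulatory T cells 4 of 85 (4.71%), cell division 2 of 120 (1.67%), p53 and DNA damage 1 of 54 (1.85%, at Fas), interferon response 1 of 53 (1.89%, at Irf4) and stem and progenitor cells 1 of 18 (5.56%, at Flt3). In cells of the clusters shared by both libraries the smaller log2 ratio was below 0 at the members of Ctla4 (-0.14), Klrg1 (-0.14), Fas (-0.057) and Rrm2 (-0.045). B cells (22 peaks), myeloid cells (17) and red cells with megakaryocytes (7) had none.

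**Figure D3:**
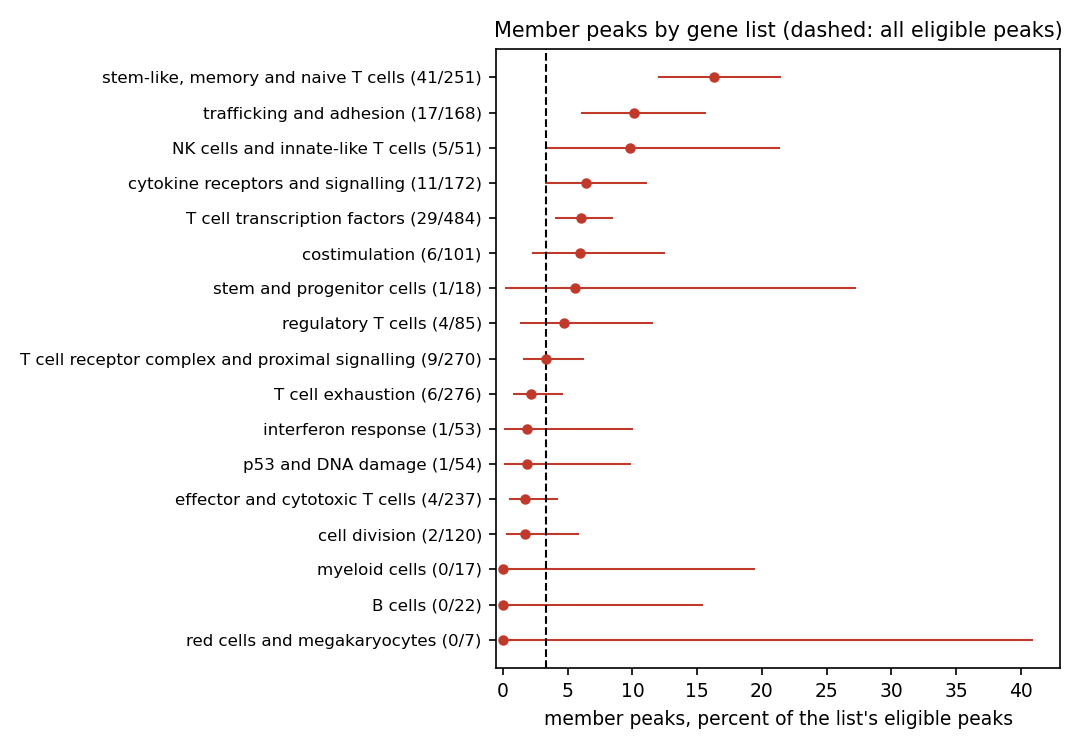
Member peaks as a percentage of each gene list's eligible peaks, with exact 95% intervals; the numbers in brackets are members over eligible peaks and the dashed line is 3.34%. The stem-like, memory and naive list lies highest at 16.3%, and the exhaustion and effector lists lie at 2.17% and 1.69%. The lists were chosen with earlier results of these data known.

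RNA was not used to choose the peaks, and a deposited table gave it for the 1210 cells of the CD4 set. Of the 1162 genes tied to a member, 1138 were in that table and 538 had at least 100 UMIs over both libraries. RNA was at least 1.5-fold higher in PT-Cy for 149 of these (27.7%) against 12.3% of the 6027 genes tied to any eligible peak, and at least 1.5-fold lower for 39 (7.25%) against 9.09%. The median log2 ratio was 0.21 (0.16 to 0.29), against 0.03. With TMM factors, which shifted every RNA ratio by -0.13, 122 member genes were higher and 58 lower, against 534 and 809 of the 6027. The share grew with the number of member peaks: 10.8% of genes with none, 24.1% with 1, 38.2% with 2 or more and 51.2% (21 of 41) with 3 or more were higher. Genes also differed in their number of eligible peaks, which ran from 3 (Aff3) to 51 (Ets1) among genes with 3 or more members. The part of that number in the shares was not tested. Genes that a member overlapped were higher in 33.7% of 329 cases, and genes with a peak lower in both sets were higher in 10.2% and lower in 18.6% of 1041.

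**Figure D4:**
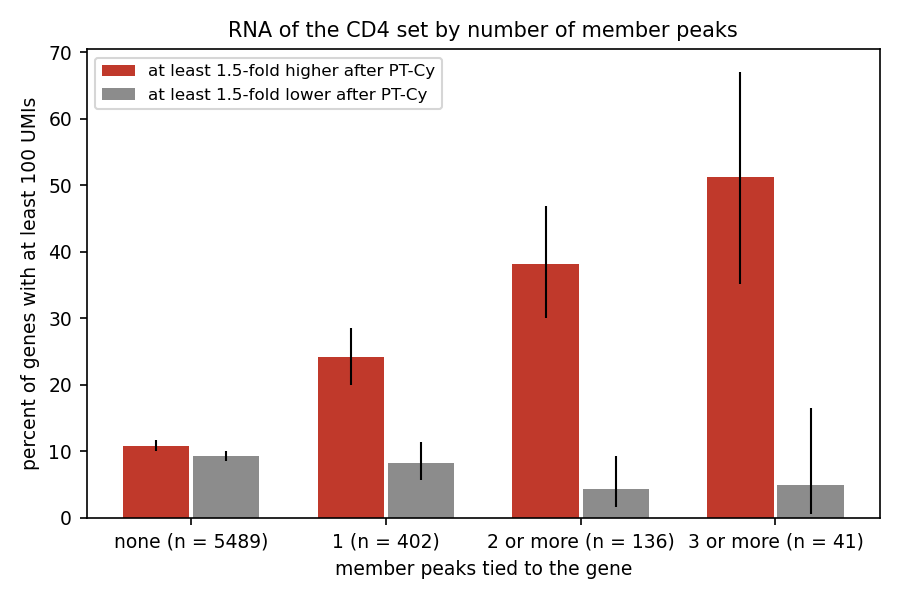
Percentage of genes with at least 100 UMIs whose CD4 RNA was at least 1.5-fold higher (red) or lower (grey) in PT-Cy, by the number of member peaks tied to the gene, with exact 95% intervals. The red bars go from 10.8% with no member peak to 51.2% with 3 or more, and the genes with 3 or more are also among those with 2 or more.

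By gene, RNA was also higher at most of the memory genes. Il7r RNA was 60.8 CPM (184 UMIs) in alloBMT and 309 CPM (391) in PT-Cy, a log2 ratio of 2.35 (2.09 to 2.61). S1pr1 had 18.5 and 72.8 CPM (1.98, 1.48 to 2.48), Satb1 97.4 and 411 CPM (2.08, 1.87 to 2.29) and Tcf7 27.7 and 95.7 CPM (1.79, 1.37 to 2.21). Foxo1 was higher by less, with 188 and 326 CPM (0.80, 0.61 to 0.98), and Bach2 had 89.8 and 170 CPM (0.92, 0.66 to 1.18). Foxp1 RNA, at 389 and 433 CPM (0.15, 0.01 to 0.30), did not reach 1.5-fold despite its 5 member peaks. Of the 12 stem-like member genes with enough UMIs, 10 were at least 1.5-fold higher and 1, Ikzf1, lower (-0.61); over the whole list it was 12 higher and 2 lower of 17. Ccr7 had only 5 and 16 UMIs and gives no usable ratio.

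Cytokine receptor genes with a member had 5 of 8 higher, among them Il2ra (23.1 and 137 CPM, log2 ratio 2.57), Il18r1 (1.37) and Il12rb2 (1.76), and none lower; over the whole list it was 10 higher and 2 lower of 20. All 4 trafficking member genes with enough UMIs were higher, among them Ccr2 (1.35), Cd44 (0.91) and S1pr1, and over the whole list 11 of 17 were higher and 2 lower. The member genes with the highest lower bounds were Dscam (3.28), Galnt10 (3.33), Pde11a (3.17), Nebl (2.97) and Arhgap31 (2.98), on 27 to 63 UMIs in alloBMT.

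Some genes with a member peak had lower RNA in PT-Cy, and most of those named here also had peaks lower in both sets. Setbp1 had 1 member peak, 3 peaks lower in both sets and RNA of 1244 CPM in alloBMT and 308 in PT-Cy (-2.02, -2.17 to -1.86). Fyn (-1.20), Nfatc1 (-1.23), Vps37b (-1.34), Eomes (-1.27), Fasl (-1.32), Zeb2 (-1.23) and Prkch (-1.18) were also lower in RNA. Prkch had 3 members and 4 lower peaks, Nfatc1 had 1 and 3, and Vps37b had 1 and 2. Fyn, Fasl and Zeb2 had 1 of each, and Eomes had 1 member and 0 lower peaks. Among exhaustion genes with a member, 4 of 5 were at least 1.5-fold lower and Ikzf2 was higher (1.29), while over the whole list 19 of 21 were lower. Of the 15 T cell transcription factor genes with a member and enough UMIs, 5 were higher and 3 lower, with a median of -0.01. Of the 1162 member genes, 190 also had a peak lower in both sets. Among the 6027 genes with enough UMIs that were tied to any eligible peak, 1041 had such a lower peak. Of the 538 member genes among them, 401 had none. The part of the number of eligible peaks per gene in these counts was not tested.

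The RNA comparison has a limit in the makeup of the CD4 set. Summed RNA of 5 red cell markers was 209 CPM in alloBMT and 848 in PT-Cy, of 5 myeloid markers 29.7 and 170, of 3 division markers 488 and 1872, and of 5 T cell markers 4680 and 3117. Of the B cell markers, Pax5 was at 0 in alloBMT and Ms4a1 in PT-Cy, and Cd8a was at 0 in both. Cd8b1 had a UMI in 195 of 926 alloBMT and 91 of 284 PT-Cy cells of the CD4 set. Median RNA UMIs per cell were 2750 in alloBMT and 3889 in PT-Cy. The part of these in the RNA ratios was not tested.

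Summed over all 1488 members, accessibility was 9774 CPM in alloBMT against 20328 CPM in PT-Cy CD4 cells (2.08-fold), and 8661 and 16342 CPM in CD8 cells (1.89-fold). In the median cell the members took 0.917% and 2.03% of counts in peaks in CD4, and 0.818% and 1.63% in CD8. All 284 PT-Cy CD4 cells and 508 of 512 PT-Cy CD8 cells lay above the alloBMT median of their set; the same cells chose the peaks.

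Depth and quality differed between the libraries. The CD4 set held 926 alloBMT cells with 6974362 counts in peaks and 284 PT-Cy cells with 1538967; the CD8 set held 1865 cells with 16605930 counts and 512 cells with 3117872. Median counts per cell were 6874 and 4091 in CD4 and 7841 and 4615 in CD8, and the median share of fragments in peaks was 66.6% and 58.3%, and 65.4% and 58.5%. The libraries shared 2 cell barcodes. In alloBMT CD4 cells the members' level was 9951 CPM in the 463 cells with the lower share and 9557 in the 463 with the higher, and in PT-Cy 19949 and 20671. In cells with 58% to 65% of fragments in peaks, a range chosen after seeing the data, the folds were 2.04 in CD4 and 1.92 in CD8; these cells also helped to choose the peaks, and the part of quality in the ratios was not tested.

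The authors' clusters, known here by number only, show where the members' accessibility lay. The members were chosen on these same cells, so a higher PT-Cy level within clusters is a description. Clusters with at least 20 cells of each library are given. CD4 cluster 2 (42 alloBMT and 238 PT-Cy cells) had 11574 and 20298 CPM (1.75-fold), and CD4 cluster 4 (34 and 31 cells) had 14983 and 21390 (1.43-fold). CD8 cluster 2 (139 and 170 cells) had 8254 and 14259 CPM (1.73-fold) and CD8 cluster 6 (86 and 121 cells) had 13605 and 20132 (1.48-fold). CD8 clusters 1 and 5 were 1.55- and 1.36-fold higher. The median log2 ratio over these 6 clusters was 0.60, against 1.06 and 0.92 for the whole CD4 and CD8 sets, so the median within clusters was smaller than either.

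The clusters also differed within the untreated library. In alloBMT CD4 cells the summed level ran from 7608 CPM in cluster 1 (320 cells) to 14983 in cluster 4, which was 1.57-fold the level of the other alloBMT CD4 cells. In alloBMT CD8 cells clusters 6 (13605 CPM) and 5 (12624, 30 cells) stood above the other clusters, which lay between 7860 and 9502. Of the PT-Cy cells, 238 of 284 lay in CD4 cluster 2, and of 512 CD8 cells 189 lay in cluster 5, 121 in cluster 6 and 170 in cluster 2, whose alloBMT level (8254 CPM) was among the lower ones. In PT-Cy CD8 cells the level ran from 12169 CPM in cluster 1 to 20132 in cluster 6.

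**Figure D5:**
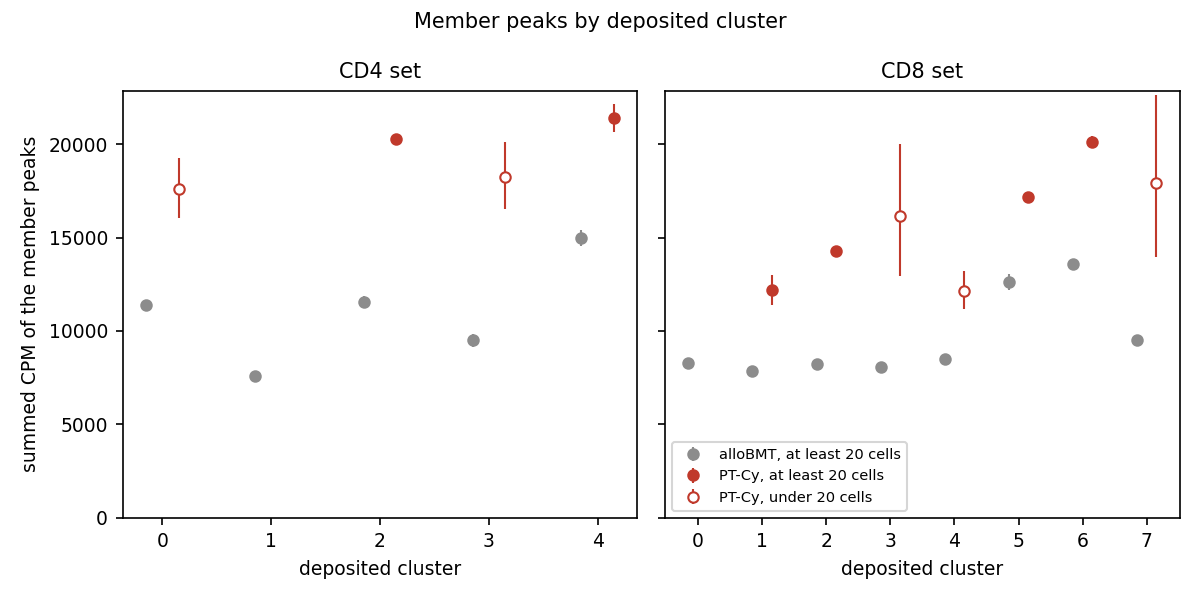
Summed CPM of the 1488 member peaks (y axis, from 0) in each deposited cluster (x axis) of the CD4 and CD8 sets, grey for alloBMT and red for PT-Cy, with exact 95% intervals; open points have fewer than 20 cells. Red lies above grey where a cluster holds both, in the cells that chose the peaks, and among the grey points CD4 cluster 4 and CD8 clusters 5 and 6 are the highest.

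Single genes varied in their order over the CD8 clusters. In alloBMT, cluster 6 was highest for Bach2, Ccr7, Foxo1 and Foxp1, while cluster 5 came next for Bach2 but stood below at least 1 further cluster for Ccr7, Foxo1 and Foxp1. The Bach2 members had 99.1 CPM (78.0 to 124) in alloBMT cluster 6, 75.5 (46.1 to 117) in cluster 5 and 28.6 (21.9 to 36.6) in cluster 2. The Ccr7 members had 93.8 CPM (73.3 to 118) in alloBMT cluster 6 and 90.8 (70.4 to 115) in PT-Cy cluster 6, so within that cluster the libraries did not differ beyond counting error. In cluster 2 they had 22.6 CPM (16.7 to 29.8) in alloBMT and 49.0 (38.2 to 61.9) in PT-Cy, with intervals apart. Clusters 1 (22.5 and 81.1 CPM) and 5 (30.2 and 53.5 CPM) had overlapping intervals. Foxo1 members had 70.0 CPM (52.5 to 91.6) in alloBMT and 126 CPM (102 to 154) in PT-Cy cluster 6, and 46.5 and 91.0 CPM in cluster 2. Foxp1 members had 56.8 CPM in alloBMT cluster 6 and between 6.99 and 13.2 CPM in the 7 other alloBMT CD8 clusters, with 11.3 in cluster 5.

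Splitting CD4 cells by RNA gave a contrast within a library, which the rule did not use, although it used the counts of these cells. In alloBMT, the 75 cells with an Il7r UMI had a member level of 14176 CPM (13880 to 14476), against 9354 (9279 to 9429) in the 851 without, at median ATAC counts of 7197 and 6813. In PT-Cy the values were 21464 CPM in 144 cells with and 19053 in 140 cells without. The 13 alloBMT cells with no Tox UMI had 16891 CPM (16048 to 17767), against 9683 in the 913 with one. AlloBMT cells with and without a UMI of Mki67, a division marker, had 9831 and 9745 CPM, and PT-Cy cells 20243 and 20735. A single UMI can come from free RNA, so the splits by Il7r, Tox and Mki67 do not cleanly sort cells by state or division. Leaving out cells with a Cd8b1 UMI gave 9872 and 21369 CPM.

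Between the lineages, member peaks had somewhat higher CPM in CD4 cells, in the counts that the rule used. The median log2 ratio of the CD8 to the CD4 level over members was -0.15 in alloBMT and -0.28 in PT-Cy, against 0.00 and 0.03 over eligible peaks. In PT-Cy 445 members (29.9%) were at least 1.5-fold higher in CD4 and 74 (4.97%) in CD8, against 11.9% and 17.2% of eligible peaks. The rule chose members by high PT-Cy counts in both sets, and PT-Cy CD4 cells had the fewest counts in peaks (1538967). The part of that choice in the difference between lineages was not tested. The CD4 and CD8 intervals of the PT-Cy ratio overlapped in 1479 of 1488 members. The rule required a higher PT-Cy level in both sets, and intervals on few counts are wide. The overlap was therefore likely in advance and does not measure agreement between the lineages. It was not counted over the eligible peaks.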

How the data were processed

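Samples were 2 multiome libraries, read as RNA and ATAC, each from 4 pooled mice, with groups of 1 library. The submitters' processing notes list Cell Ranger ARC 1.0.1, MACS2 and the human build GRCh38. Gene names in the files are those of mouse, so the peaks were checked against mouse GRCm38.p6: 63.1% of 21262 protein-coding gene starts lay in a peak, against 5.35% to 6.33% when shifted by 2000 to 200000 bases. Peaks are given at their deposited positions, and RefSeq served only to tie them to genes and for promoter windows. No source used here gives the settings of peak calling or of cell and doublet filters, and doublets were not called anew.

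The deposited ATAC and RNA tables hold whole-number counts per peak or gene and cell, not normalized, per the file headers and the values. The deposited per-cell table gives counts, the fraction of fragments in peaks and the ratio of TSS enrichment per cell, per the file headers. That ratio, as deposited, had medians of 5.44 and 5.27 in CD4 and 5.37 and 5.24 in CD8 cells. The set (CD4 or CD8) and cluster of each cell are those the authors deposited.

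Counts were summed per library, set and cluster and scaled to CPM of the summed counts in peaks. Ratios have exact conditional binomial (Clopper-Pearson) 95% intervals. "At least 20 counts" was read as 20 per set over both libraries. Named peaks were the 15 members with the highest smaller lower bound, the 5 such within 2 kb of a gene end, up to 4 members per gene list, genes with 3 or more members and the peaks nearest the threshold. RNA was named for their genes with at least 100 UMIs and for the 5 highest and 5 lowest member genes. Member peaks, gene lists and rules were chosen with earlier results of these data known. Alternatives used edgeR 4.0.16 (TMM) and DESeq2 1.42.0 size factors, other thresholds and other cells. The rule and the intervals were tested on simulated data. Python 3.11.15 was used.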

Additional observations from a re-analysis of the deposited data

How the results depend on the processing

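No paired analysis was possible because each group holds 1 library, and for the same reason no replicate could be left out. The number of member peaks, 1488, became 905 with edgeR TMM factors and 939 with DESeq2 size factors, all of them among the 1488; it was 304 at 2-fold, 499 and 2724 with a minimum of 200 and 50 counts, 596 with 20 counts in each library of each set, 768 with both intervals above no change, and 398 (240 shared with the 1488) with alloBMT thinned to the PT-Cy total. It was 1079 to 1656 with each cell counted once, without the deepest cells, with library totals over both sets and as a mean over cells. The count minimums and the thinning also changed the eligible peaks. Members were 3.34% of 44523 eligible peaks in the main setting, 1.74% of 28601 with 200 counts and 4.91% of 55433 with 50. They were 3.17% of 18799 with 20 counts in each library of each set and 1.86% of 21433 with alloBMT thinned. Other settings were added after seeing the data. Cells with 58% to 65% of fragments in peaks gave 510 (2.04% of 24978 eligible peaks), or 1831 over the original eligible peaks with 915 shared. Clusters with 20 cells of each library gave 1513, of which 634 were shared. Leaving out CD4 cells with a Cd8b1 UMI gave 1504, of which 1283 were shared. The stem-like list held a larger percentage of members than all eligible peaks in every one of these settings, for instance 11.2% against 2.03% with TMM factors and 10.4% against 3.40% within the shared clusters. All settings reuse cells of the same libraries, and the lists were chosen with earlier results of these data known, so this is a description. In those clusters the smaller log2 ratio turned negative at the peaks of Ctla4 (-0.14), Klrg1 (-0.14), Rora (-0.28), Rrm2 (-0.045) and Fas (-0.057); the cause was not tested.

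The share within 2 kb of a gene end, 20.2%, was 15.5% for the 2-fold rule and 22.4% with 200 counts; windows of 1 and 10 kb gave 15.2% and 42.3%. The RNA median of 0.21 was 0.33 with 20 UMIs, 0.32 for overlapped genes, 0.20 without the cells with the most UMIs and 0.078 with TMM factors, where 22.7% of member genes against 8.86% of all were higher. TMM factors (for the sums added after seeing the data) put the summed folds at 1.82 and 1.78, and the 2-fold rule put them at 2.74 and 2.52. The cluster median of 0.60 was 0.63 and 0.68 with at least 10 and 50 cells. Median PT-Cy counts of 18 (CD4) and 28 (CD8) per member limit what single peaks can show.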
